A study of Mus musculus and Homo sapiens with 4 samples.

Results

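Neuropeptide Y (NPY), its receptors NPY1R and NPY5R, the granins CHGA, CHGB, SCG2, SCG3 and SCG5 and the vesicle protein synaptophysin (SYP) were examined as a group of 9 genes in RNA sequencing of VCaP prostate cancer cells. NPY is a peptide neurotransmitter that is cut from a larger precursor, stored in dense-core granules and released to act on G protein-coupled receptors. Granins are acidic proteins that fill and help to form the same granules, and synaptophysin spans the membrane of small synaptic-like vesicles. In the prostate these proteins mark the scattered neuroendocrine cells of the gland and neuroendocrine tumours, and CHGA and SYP are used to stain such tumours, while NPY is also known to be abundant in some prostate adenocarcinomas.

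The members were selected by name, with their RPKM values in both libraries already known, NPY having the highest log2 ratio of all entries. Each name was found on 1 entry among the 25932 entries, so that all 9 members were measured. Coordinates are those of the files, hg18 being the human build that the submitters name. The values are read numbers divided by entry length and by the mapped reads of the library (RPKM), and levels of different genes are compared here on that per-length scale alone. The log2 ratio is the VCaP ERα value plus 1 over the value of the VCaP-labelled library plus 1, and 2 is the threshold that the study itself applied to it. Because the choice of members used this contrast, the values below are a description and carry no test.

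The comparison was between VCaP cells at passages 5 to 6 and VCaP ERα cells at passages 4 to 5, which stably overexpress ERα (the gene ESR1); both were kept in DMEM with fetal bovine serum. Whether the ERα cells were 1 clone or a pool, and which ligand was present beyond serum, are not given in the sources used here. Each group gave 1 library of ribosome-depleted, strand-specific RNA, so no value has a replicate error and no difference has a replicate check. ESR1 was listed at 15.7 RPKM in the VCaP-labelled library and 209 RPKM in VCaP ERα, a 13.3-fold difference of RPKM in the direction of the labels.

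The VCaP-labelled library had low values of prostate luminal genes, and only 3 of the 10 listed here reached 1 RPKM in it. This library is named by its label throughout. Both lists below were chosen with earlier results of these data known, so they describe the values only. A list of 10 prostate luminal genes (KLK2, KLK3, KLK4, ACPP, TMPRSS2, FOLH1, SLC45A3, TRPM8, STEAP2 and HOXB13) had a median of 0.0631 RPKM there, with a range of 0 to 8.18 and a sum of 12.5, against a median of 117 RPKM, a range of 3.16 to 694 and a sum of 1925 in VCaP ERα. A list of 14 luminal breast genes summed to 5210 RPKM in the VCaP-labelled library and 1338 RPKM in VCaP ERα, and 6 of the 14 had a log2 ratio below -2 (TFF1, TFF3, GATA3, KRT19, TRPS1 and KRT18) against 3 above 2 (ESR1, TBX3 and AGR2). The range of the breast list was 0.00756 to 1625 RPKM and 0.0354 to 727 RPKM. Its sums rest on few genes. KRT19 (1625 RPKM), TFF1 (1596), KRT18 (673) and XBP1 (623) were the highest in the VCaP-labelled library. In VCaP ERα these were AGR2 (727 RPKM), ESR1 (209), XBP1 (182) and FOXA1 (127), and ESR1 is the gene overexpressed by design. The part of a difference in cell identity in any result below was not tested, and with 1 library per label it cannot be told apart from ERα. In bulk RNA, fewer cells of a type and less RNA per cell cannot be told apart either.

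Depth is unknown, since the files hold no read counts, and it bears on genes near 0. In the VCaP-labelled library 8757 entries (33.8%) were listed at 0, and in VCaP ERα 3607 entries (13.9%) were. A listed 0 need not mean absence. GPX1, a glutathione peroxidase of most cell types, was listed at 0 in the VCaP-labelled library and at 59.3 RPKM in VCaP ERα, and USP10, a ubiquitous deubiquitinase, was at 32.7 RPKM and 0. These genes were chosen after their values were seen. There were 36 entries at 0 in the VCaP-labelled library with at least 10 RPKM in VCaP ERα, NPY among them, and 12 entries of the opposite kind.

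Of the 9 members, 4 had a log2 ratio above 2 (NPY, SCG3, CHGB and CHGA), 0 had one below -2 and 5 lay between. Among all entries 588 (2.27%) were above 2 and 1701 (6.56%) below -2, and since the contrast was used in choosing the members nothing is read from these shares. The same holds for the counts of the gene lists below, which were chosen with earlier results of these data known. With the median log2 ratio of expressed entries subtracted there were 1238 entries above 2 and 868 below -2, with 5 members above 2, and quantile normalization gave 996 and 997 entries, with 4 members. In the VCaP-labelled library none of the members reached 1 RPKM and 5 had a listed 0, whereas in VCaP ERα 6 members reached 1 RPKM and NPY5R alone was at 0. The median log2 ratio of the members was 1.48, against 0 over all entries and -0.59 over the 9754 entries that both libraries listed at 1 RPKM or more.

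**Figure D1:**
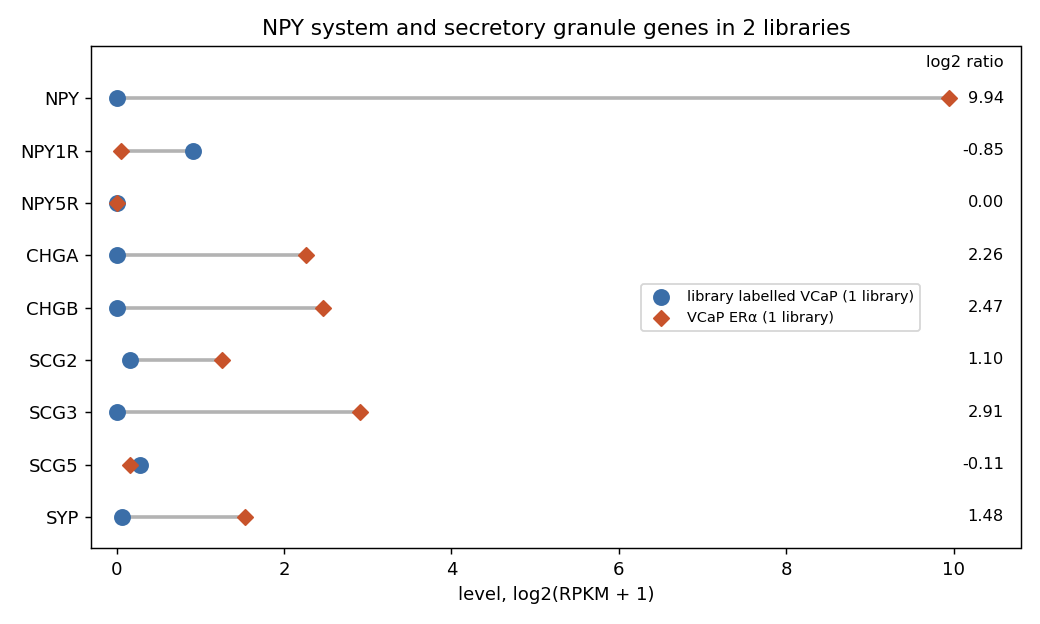
Level of each of the 9 members as log2(RPKM + 1) on the x axis, in the VCaP-labelled library (circles) and in VCaP ERα (diamonds), 1 library each and no error bars, with the log2 ratio printed at the right. NPY lies far from all others at 9.94, SCG3, CHGB and CHGA follow at 2.91, 2.47 and 2.26, and NPY1R and SCG5 are the members with a negative ratio.

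The peptide itself gave the extreme value of the group. NPY (chromosome 7, 24290334 to 24298002) was listed at 0 in the VCaP-labelled library and at 982 RPKM in VCaP ERα (log2 ratio 9.94). Only 19 entries, among them ribosomal protein genes such as RPL27 and RPLP0, had a higher value in VCaP ERα, so that NPY ranked 20. It made up 0.499% of the RPKM sum of that library. The other members stood far below the peptide: together they summed to 18.3 RPKM in VCaP ERα, so that NPY was 53.6 times their sum and 150 times SCG3, the next highest. Among the 8757 entries listed at 0 in the VCaP-labelled library, NPY was the highest in VCaP ERα, the next having 164 RPKM, and 186 (2.12%) of these entries had a log2 ratio above 2.

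The 5 entries whose pair of levels was nearest to that of NPY, by Euclidean distance in log2(RPKM + 1) over the 2 libraries, were KLK2 (distance 1.12), CRISP3 (1.19), LDHB (1.21), ACPP (1.71) and RPS4Y1 (1.91). KLK2 and ACPP encode a kallikrein and an acid phosphatase of prostate secretion, and CRISP3 a secreted cysteine-rich protein, whereas LDHB is a lactate dehydrogenase subunit and RPS4Y1 a Y-linked ribosomal protein. RPS4Y1 had 0.0842 RPKM in the VCaP-labelled library and 261 RPKM in VCaP ERα. Whether this goes with the difference in cell identity given above was not tested. None of the other 8 members was among these 5 entries. With 2 libraries, such a likeness says only that an entry was low in the VCaP-labelled library and high in VCaP ERα. The highest of the 5 in the VCaP-labelled library was ACPP, at 2.11 RPKM.

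NPY1R and NPY5R did not follow the peptide. NPY1R, the Y1 receptor, which couples to inhibitory G proteins, was the member with the highest value in the VCaP-labelled library, at 0.881 RPKM, and had 0.0403 RPKM in VCaP ERα. This is a 21.8-fold lower RPKM, but a log2 ratio of only -0.85 with the pseudocount of 1. NPY5R, the Y5 receptor, was listed at 0 in both libraries. The entries of these receptors lie 11343 bp apart on chromosome 4 (NPY1R from 164464567 to 164473198, NPY5R from 164484541 to 164492536). Both receptors were thus below 1 RPKM in both libraries, where the unknown depth limits each value. The other receptors of the family, NPY2R, PPYR1 and NPY6R, were higher in VCaP ERα at low levels, as given below.

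The remaining genes of the family were low in both libraries. The list holds 9 genes, all found, of which 2 were above 2 and 0 below -2, with a median log2 ratio of 0.64. NPY6R, a receptor gene that is a pseudogene in humans, was listed at 0 and 3.13 RPKM (log2 ratio 2.05). PPYR1 (NPY4R), the receptor that prefers pancreatic polypeptide, had 0.149 and 2.09 RPKM (log2 ratio 1.43). It has a close copy on the same chromosome arm in later assemblies, so its reads are uncertain. NPY2R, the presynaptic Y2 receptor, had 0 and 0.104 RPKM. The related peptides PYY, of the gut, and PPY, of the pancreas, had 0 and 0.554 RPKM and 0.319 and 0.500 RPKM. DPP4, the surface peptidase that shortens NPY so that it no longer binds the Y1 receptor, had 0.343 and 2.20 RPKM (log2 ratio 1.25). No family gene other than NPY exceeded 3.13 RPKM.

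Among the granins, 3 genes listed at 0 in the VCaP-labelled library had a few RPKM in VCaP ERα. SCG2, given below, was also higher there, while SCG5, VGF and PCSK1N were lower. SCG3 (chromosome 15, 49760842 to 49800515), which tethers CHGA to the cholesterol-rich granule membrane, was listed at 0 in the VCaP-labelled library and had 6.53 RPKM in VCaP ERα (log2 ratio 2.91). CHGB (chromosome 20, 5840168 to 5854003), chromogranin B, was listed at 0 and 4.53 RPKM (log2 ratio 2.47). CHGA (chromosome 14, 92459198 to 92471393), chromogranin A, the circulating marker of neuroendocrine tumours, was listed at 0 and 3.80 RPKM (log2 ratio 2.26), and was the member just inside the threshold. These levels are modest: SCG3, CHGB and CHGA ranked 4181, 5460 and 6110 in VCaP ERα.

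SCG2 and SYP were higher in VCaP ERα without passing the threshold. SYP (chromosome X, 48931209 to 48943605) had 0.0438 RPKM in the VCaP-labelled library and 1.91 RPKM in VCaP ERα, a 43.6-fold difference of RPKM, and with a log2 ratio of 1.48 it was the member just outside the threshold. SCG2 (chromosome 2, 224169902 to 224175365), the precursor of secretoneurin, had 0.118 and 1.39 RPKM, an 11.8-fold difference of RPKM and a log2 ratio of 1.10. In VCaP ERα, SCG3 thus stood 3.42 times above SYP and 4.69 times above SCG2 per length. No replicate spread is there to say which of SCG3, CHGB and CHGA, or of SYP and SCG2, is truly the higher.

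SCG5 and the granins that are no members ran the other way or stayed near 0. SCG5 (chromosome 15, 30721252 to 30776590), the chaperone that the prohormone convertase PCSK2 needs to mature, had 0.211 RPKM in the VCaP-labelled library and 0.122 RPKM in VCaP ERα (log2 ratio -0.11). Its interval holds a further entry, C15orf45, at 0 in both libraries. PCSK1N, the granin-like inhibitor of the convertase PCSK1, had 24.8 and 0.914 RPKM (log2 ratio -3.75). It was the highest granin of the VCaP-labelled library but not of VCaP ERα. VGF, a granin precursor of several peptides, had 5.19 and 1.95 RPKM (log2 ratio -1.07). Of the 7 granins, 3 were therefore above 2, 1 was below -2 and 3 lay between, with a median log2 ratio of 1.10. The RPKM sum of the list was 30.3 in the VCaP-labelled library and 19.2 in VCaP ERα.

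**Figure D2:**
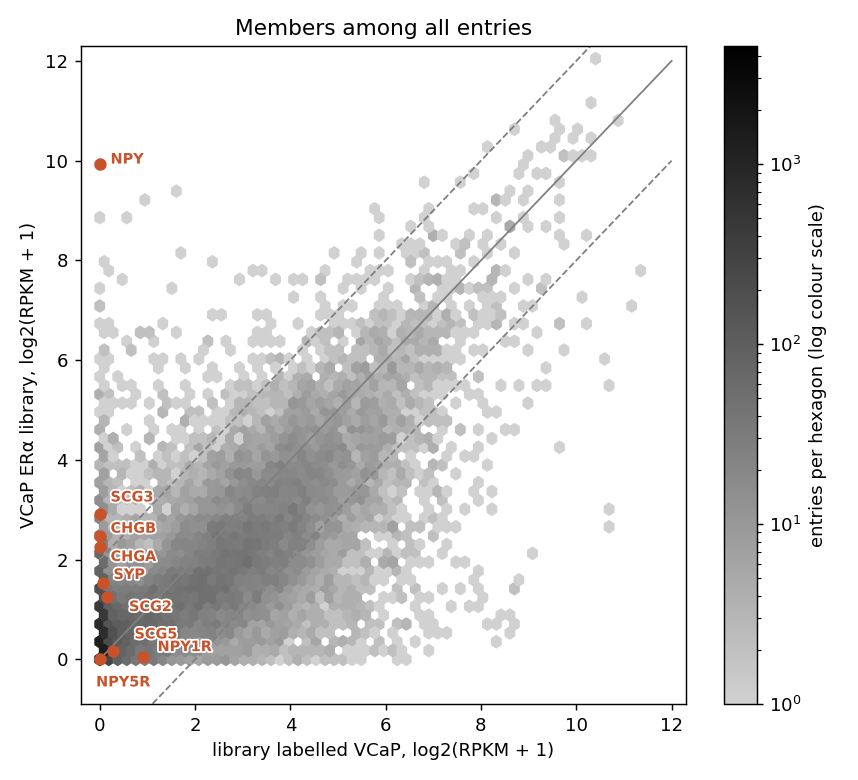
All 25932 entries as log2(RPKM + 1) in the VCaP-labelled library (x axis) and in VCaP ERα (y axis), with the number of entries per hexagon on a log colour scale, the line of equality and dashed lines at 2 log2 units from it. NPY lies at the upper left, with unlabelled entries such as KLK2 and CRISP3 near it. The 8 other members (labelled points) sit in the lower left corner, SCG3, CHGB and CHGA just above the upper dashed line.

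Prohormone processing genes were compared because NPY and the granins are precursors that must be cut and trimmed. Of the 13 genes, all found, 0 were above 2, 3 below -2 and 10 between, with a median log2 ratio of -0.11. The convertases of dense-core granules were at or near 0: PCSK1 had 0 and 0.0726 RPKM and PCSK2 had 0 and 0.0754 RPKM. CPE, the carboxypeptidase that trims the basic residues left by the convertases, had 12.6 RPKM in the VCaP-labelled library and 26.5 RPKM in VCaP ERα (log2 ratio 1.02). PAM, which amidates the end of NPY and many other peptides, had 8.22 and 0.844 RPKM (log2 ratio -2.32). PCSK6, a convertase of the constitutive pathway, had 18.6 and 1.54 RPKM (log2 ratio -2.94). CTSL1, cathepsin L, which also cuts precursors in granules, had 66.6 and 20.6 RPKM (log2 ratio -1.65). PCSK1N, given above, was the third gene below -2. So the library with abundant NPY carried CPE but little PCSK1, PCSK2 or PAM. It also held other enzymes of the list, CTSL1 as given above among them. CPD and QPCT had 9.09 and 18.6 RPKM and 5.75 and 12.7 RPKM in the VCaP-labelled library and VCaP ERα. FURIN and PCSK7 were lower in VCaP ERα, with 6.26 and 3.57 RPKM and 5.36 and 2.52 RPKM. Whether NPY was cut in these cells was not tested.

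Among 35 genes of vesicle membranes and regulated exocytosis, SYP included and all found, 5 were above 2, 3 below -2 and 27 between, with a median log2 ratio of 0.35. SYT4, a synaptotagmin of dense-core vesicles, had the largest positive ratio, from a listed 0 to 16.5 RPKM (log2 ratio 4.13). CADPS, which primes dense-core granules for release, had 0.105 and 6.75 RPKM (log2 ratio 2.81). RAB3B, a vesicle GTPase, had 0.845 and 9.51 RPKM (log2 ratio 2.51). The priming factor UNC13A and the fusion clamp CPLX2 had log2 ratios of 2.43 and 2.19, reaching 4.69 and 3.64 RPKM in VCaP ERα.

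In the opposite direction SYT1, the calcium sensor of synaptic vesicles, had 5.83 RPKM in the VCaP-labelled library and a listed 0 in VCaP ERα (log2 ratio -2.77). RAB3D, a GTPase of exocrine granules, had 46.9 and 8.85 RPKM (log2 ratio -2.28). CYB561, the granule cytochrome that feeds electrons to PAM, had 98.5 and 20.4 RPKM (log2 ratio -2.22), and SYPL1, the broadly expressed relative of SYP, had 53.4 and 33.5 RPKM. SNAP25, a SNARE of regulated release, had 0.0401 and 1.54 RPKM (log2 ratio 1.29), close to that of SYP. Within the synaptotagmins and the RAB3 GTPases, relatives thus stood on opposite sides: SYT1 was at 0 in VCaP ERα and SYT4 in the other library, and RAB3D had a negative and RAB3B a positive log2 ratio.

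Most other peptide precursors were below 1 RPKM in both libraries. Of 25 genes, all found, 10 reached 1 RPKM in either library, 15 were listed at 0 in the VCaP-labelled library and 5 in VCaP ERα, and 4 (VIP, SST, PENK and CRH) in both, with 2 above 2, 3 below -2 and a median log2 ratio of 0.083. GAL, the precursor of galanin, a neuropeptide of sensory and endocrine cells, had 1.12 and 13.4 RPKM (log2 ratio 2.76). NMU, the precursor of neuromedin U, had a listed 0 and 3.54 RPKM (log2 ratio 2.18). NMB, the precursor of neuromedin B, ran the other way with 14.8 and 2.47 RPKM (log2 ratio -2.19). The other genes below -2 encode hormone-like factors rather than neuropeptides: STC1, stanniocalcin, had 66.8 and 0.0813 RPKM (log2 ratio -5.97), and PTHLH, the parathyroid hormone-related protein, had 5.06 RPKM and a listed 0 (log2 ratio -2.60).

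**Figure D3:**
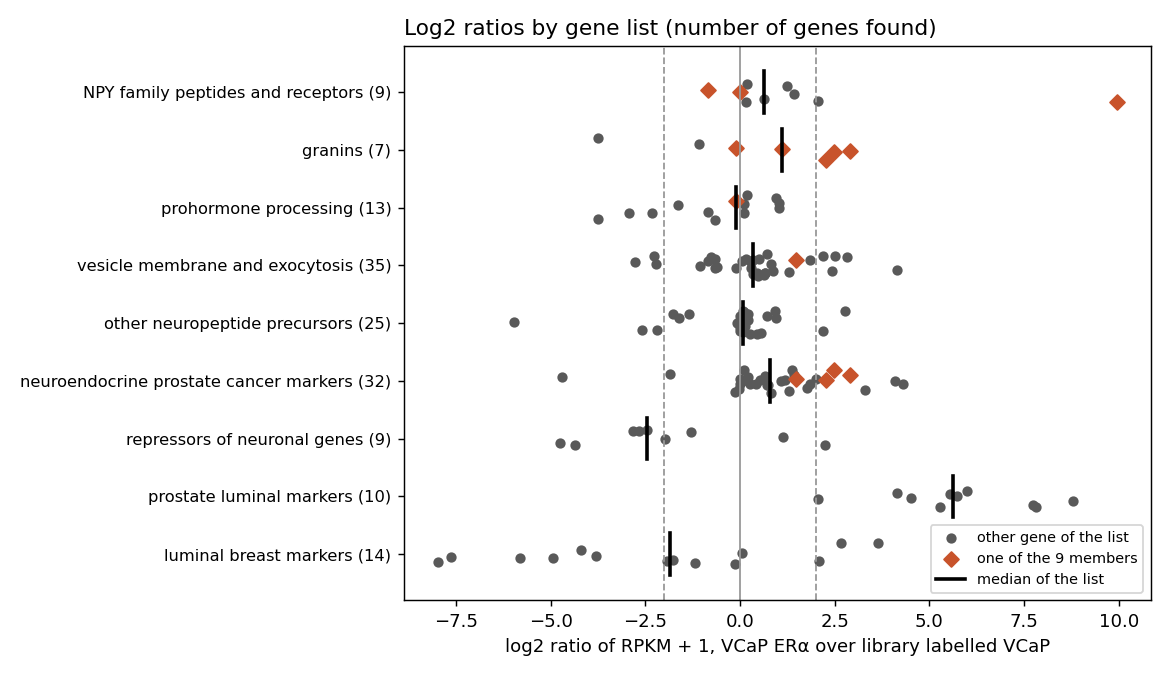
Log2 ratio of each gene found (points, with the 9 members as diamonds) in the 9 gene lists, 1 list per row with its number of genes, and the median of each list as a black bar; dashed lines mark -2 and 2. The granin and exocytosis rows hold points of both signs, with 3 members above 2 among the granins, whereas all 10 prostate luminal genes lie above 2.

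A list of 33 markers of neuroendocrine prostate cancer contains CHGA, CHGB, SCG3 and SYP, so its count is in part that of the members. Of the 32 genes found, 7 were above 2, 1 below -2 and 24 between, and without the 4 members 4 of 28 were above 2. Over all entries 588 (2.27%) were above 2 and 1701 (6.56%) below -2. The list was chosen with earlier results of these data known, so nothing is read from these counts. In all, 26 were higher in VCaP ERα and 4 lower, with a median log2 ratio of 0.78. However, 15 of the 32 were listed at 0 in the VCaP-labelled library and could not be lower in VCaP ERα. Only 19 reached 1 RPKM in either library. Over all 25932 entries a log2 ratio of 0 ranked 12088 from the top, so fewer than 12088 were higher in VCaP ERα. Nothing is read from the 26, since unknown depth limits values near 0. BEX1, a small adaptor protein of neural cells, was listed at 0 and 18.6 RPKM (log2 ratio 4.29). UCHL1, a neuronal deubiquitinase, had 0.274 and 20.7 RPKM (log2 ratio 4.09). PEG10, an imprinted retrotransposon-derived gene, had 0.0588 and 9.43 RPKM (log2 ratio 3.30), and DLL3, an inhibitory Notch ligand, was listed at 0 and 3.04 RPKM (log2 ratio 2.01).

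The list also holds transcription factors of the neuroendocrine lineage. SOX2, a stem cell and neuroendocrine lineage factor, had 29.1 RPKM in the VCaP-labelled library and 0.151 RPKM in VCaP ERα (log2 ratio -4.71). INSM1, a zinc-finger factor of endocrine cells, had 0.0687 and 2.85 RPKM (log2 ratio 1.85), MYT1 and ONECUT2 had log2 ratios of 1.43 and 1.09, and NKX2-1, FOXA2, ST18 and MYCN of 0.43, 0.21, 0.21 and 0.11. POU3F2 had -0.031, and NEUROD1 was listed at 0 in both. ENO2, the neuron-specific enolase, had 1.73 and 1.47 RPKM, and NCAM1, the adhesion molecule CD56, had 0 and 0.573 RPKM. L1CAM, a neural adhesion molecule, had 4.39 and 0.493 RPKM (log2 ratio -1.85).

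Of 9 repressors and modulators of neuronal genes, all found, 1 was above 2 and 5 below -2, with a median log2 ratio of -2.45. All 9 reached 1 RPKM in both libraries. Among the 13954 entries that did so in either library 588 were above 2 and 1701 below -2, which is 2.27% and 6.56% of all entries. The list was chosen with earlier results known, so nothing is read from its count. REST, which silences granin and synaptic genes outside the nervous system, had 19.7 RPKM in the VCaP-labelled library and 2.80 RPKM in VCaP ERα (log2 ratio -2.45). Its partner RCOR1 had 10.0 and 3.48 RPKM (log2 ratio -1.30). The bHLH inhibitors ID1 and ID3 had 95.9 and 3.71 RPKM and 71.3 and 1.70 RPKM, log2 ratios of -4.36 and -4.74. HES1, a Notch target that represses proneural genes, and HES6, which opposes HES1, had log2 ratios of -2.83 and -2.66. ID4 went the other way with 3.28 and 19.2 RPKM (log2 ratio 2.24), and SPDEF, an epithelial ETS factor, was the most abundant of the list with 87.0 and 191.9 RPKM. No association of REST with the members can be tested over 2 libraries.

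The entries around the members lay on both sides. Within 200 kb of the members 30 other entries reached 1 RPKM in either library, of which 21 were lower in VCaP ERα and 9 higher, 0 of them above a log2 ratio of 2. Their median log2 ratio was -0.94. Among all 13954 entries of the files with 1 RPKM or more in either library 8934 (64.0%) were lower in VCaP ERα, against 70% around the members, and without the entries around SYP 10 were lower and 9 higher. Around SYP all 11 such entries were lower in VCaP ERα, from -3.42 (PLP2) to -0.64 (AK001937), whereas SYP itself had 1.48. ITPK1, 1.62 kb above CHGA, had 16.7 and 3.23 RPKM (log2 ratio -2.07) beside the 2.26 of CHGA, and the other 2 entries near CHGA, LGMN and GOLGA5, were lower in VCaP ERα, at 24.3 and 11.7 RPKM and at 29.4 and 22.5 RPKM.

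The surroundings of the other granins were mixed, with 4 of the 5 entries near CHGB and 2 of the 5 near SCG3 higher in VCaP ERα and 2 of the 3 near SCG5 lower. LYSMD2, 2.04 kb above SCG3, had 3.85 and 10.4 RPKM (log2 ratio 1.24), while TMOD2, AB073658 and DMXL2 had log2 ratios of -0.17, 0.034 and -1.73, and TMOD3 had 27.8 and 6.19 RPKM. Next to CHGB, TRMT6 and MCM8 had log2 ratios of 0.017 and 0.23, C20orf196 and CRLS1 of 0.59 and 1.96, and FERMT1 of -1.16. Next to SCG5, GREM1, a secreted BMP antagonist, was listed at 0 and 2.82 RPKM (log2 ratio 1.93), while FMN1 and ARHGAP11A had log2 ratios of -2.26 and -0.27. AP1S3, the sole such entry near SCG2, had a log2 ratio of -0.19, and NAF1 and C4orf43 near the receptors had 0.28 and 0.81.

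No entry of the files lies within 200 kb of NPY. The nearest one above it is MPP6, a scaffold protein gene 282 kb away, with 6.82 and 42.8 RPKM and a log2 ratio of 2.49, and the nearest below is STK31, 379 kb away, with 0.0235 and 0.110 RPKM. These were looked up after the NPY value had been seen.

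**Figure D4:**
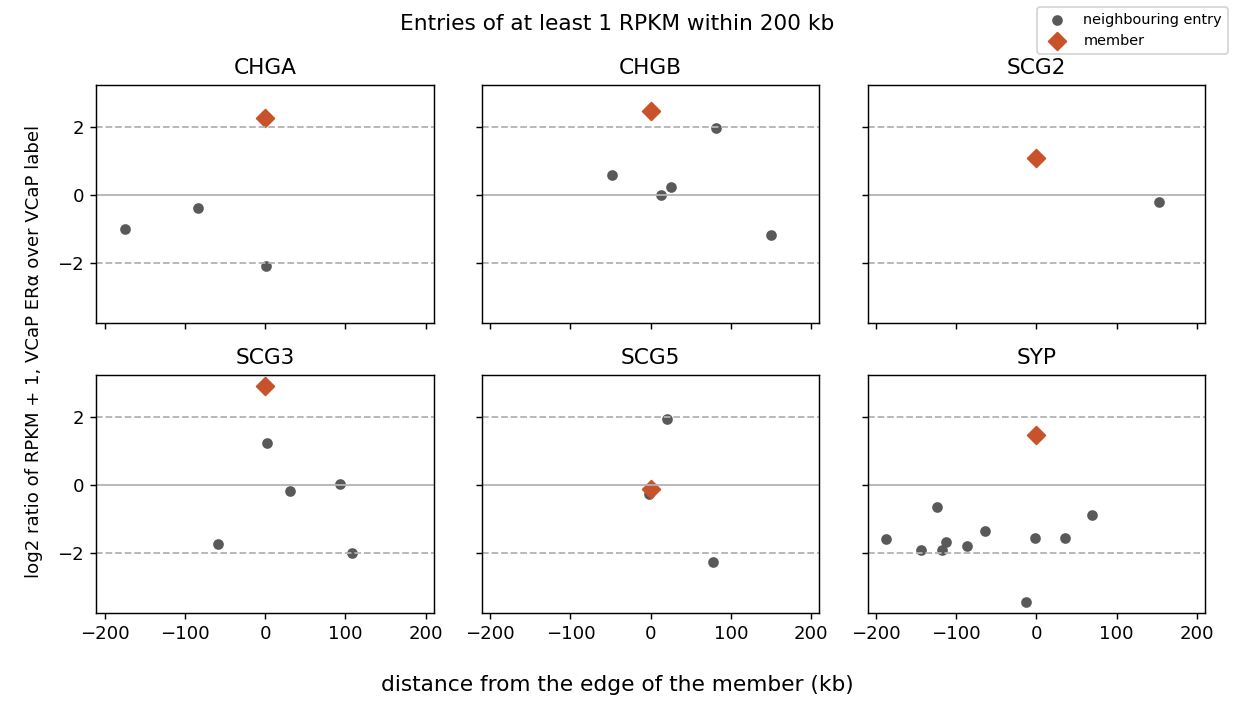
Log2 ratio (y axis) of entries with at least 1 RPKM in either library against their distance in kb from the edge of a member (x axis), for CHGA, CHGB, SCG2, SCG3, SCG5 and SYP (diamond at 0). No neighbouring entry exceeds 2, and all 11 entries around SYP lie below 0.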

How the data were processed

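RNA of VCaP and VCaP ERα cells was sequenced by the authors after ribosomal RNA removal and with the transcript strand kept, and 1 RPKM value per entry was deposited for each library. The aligner and counter are not given in the sources used here. The submitters' processing notes name CASAVA 1.8 and the builds hg18 and mm10, of which hg18 is human. Coordinates are printed as in the files. Scaling between libraries is not stated.

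Groups were taken from the sample labels. From the deposited RPKM values the log2 ratio of VCaP ERα over VCaP was taken after adding a pseudocount of 1, and entries beyond 2 in either direction were counted. No filter was applied. Where a symbol stood on more than 1 entry, that of highest mean RPKM was used. With 1 library per group no test was made. Members and gene lists were chosen with earlier results of these data known. Genes were named when their log2 ratio was beyond 2 in either direction or when they were among the 3 highest of a list; entries of at least 1 RPKM within 200 kb of a member and the 5 entries most like NPY were also named. Genes outside this rule were chosen after their values were seen. Of the 33 neuroendocrine markers, SRRM4 was not found. Some genes planned for the marker lists are not reported here, and the counts, medians and sums leave them out. Human promoter and protein sequences were not used here, so the motif and protein descriptions that were planned were not made.

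The alternatives tried were the use of 0.1 as pseudocount, the removal of entries under 1 RPKM in both libraries, subtraction of the median log2 ratio of entries that reached 1 RPKM in both, quantile normalization, and the entry of lowest mean RPKM. Without replicates, a log2 ratio was taken as unchanged within 0.58 and a count within 1.5 times. The ratio and its threshold were tried on simulated data, with large changes placed in expressed entries alone. Quantile normalization was tried on a small made-up example. These trials say nothing of genes near 0, the gene lists or the neighbouring entries. The total of reads per library is unknown, so no interval or detection floor is given. Calculations ran in Python 3.11.15 with pandas 2.3.3 and numpy 2.4.6, and plots were made with matplotlib 3.10.9.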

Additional observations from a re-analysis of the deposited data

Results flagged for a closer look

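The mouse embryonic fibroblast libraries of the series, 1 of wild-type and 1 of NEAT1 KO cells, lie outside the comparison above. Npy had 2.55 RPKM in the KO library against 1.54 RPKM in wild type, a log2 ratio of 0.48, and was singled out because it is a signal above the control in data that the report did not use. Neat1, the deleted gene, was listed at 29.5 RPKM in the wild-type library and at 2.01 RPKM in the KO library. All 9 members had a mouse entry, and Npy and Npy1r (1.94 RPKM in wild-type cells against 0.772 RPKM without NEAT1) were the 2 that reached 1 RPKM. Chga and Scg3 were listed at 0 in both libraries, and the highest value of the other 5 was 0.128 RPKM. With 1 library per genotype the differences have no replicate check.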

How the results depend on the processing

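No paired analysis was possible because each group has 1 library and the result comes from no test. Of 104 values under the alternatives, 57 stayed within the limits given above and 47 moved. Of the 57, 21 came from the entry of lowest mean RPKM, which could move no member, since each stood on 1 entry. Among the listed genes XBP1 alone had 2 entries. The minimum of 1 RPKM likewise cannot alter a count beyond 2 in either direction, so these values say nothing of stability. No log2 ratio or median beyond 2 in either direction changed sign, while some nearer 0 did, as given at the end. A pseudocount of 0.1 gave log2 ratios of 13.3 for NPY, 6.05 for SCG3, 5.53 for CHGB, 5.28 for CHGA, 3.80 for SYP, 2.78 for SCG2 and -2.81 for NPY1R, so that 6 members were above 2 and 1 below -2, with a median of 3.80; over all entries 4238 were above 2 and 2958 below -2. The list medians were then 2.38 for the NPY family, 2.78 for granins, 1.59 for exocytosis, 0.67 for other precursors, 2.85 for neuroendocrine markers, 8.26 for prostate and -2.81 for breast genes. Centring added 0.59 to each log2 ratio, which gave 10.5 for NPY, -0.26 for NPY1R, 0.59 for NPY5R, 2.85 for CHGA, 3.06 for CHGB, 1.69 for SCG2, 3.50 for SCG3, 0.48 for SCG5 and 2.07 for SYP, a median of 2.07, 5 members above 2, and 1238 entries above 2 and 868 below -2. The list medians were then 1.23, 1.69, 0.48 (processing), 0.94, 0.67, 1.37, -1.86 (repressors), 6.22 and -1.25. Quantile normalization kept 4 members above 2 and gave 996 entries above 2, 997 below -2 and a repressor median of -1.75. The minimum of 1 RPKM gave medians of 2.36 for the members, 1.74 for the NPY family, -0.86 for processing, -1.49 for other precursors and 1.48 for neuroendocrine markers, since fewer genes were kept. SCG5 changed sign under centring, and the medians of the processing list (centring) and of other precursors (minimum of 1 RPKM, and -0.015 under quantile normalization) did so too. The unknown depth limits every value near 0.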

Other observations

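SCGN, which encodes secretagogin, a calcium-binding protein of neuroendocrine and islet cells, was listed at 0 in the VCaP-labelled library and had 71.2 RPKM in VCaP ERα. Its log2 ratio was 6.17, which ranked 17 among all entries. It is in none of the gene lists and was chosen after its value was seen. In VCaP ERα it stood above SCG3, CHGB and CHGA and below NPY.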
